A study of Mus musculus with 4 samples.

Results

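The TNF receptor superfamily genes of unpolarized CD4 T cells were followed in cells that carried the Tox retrovirus (Tox RV) or the empty vector (EV RV). The members were the 10 genes *Tnfrsf1a*, *Tnfrsf1b*, *Tnfrsf4*, *Tnfrsf8*, *Tnfrsf9*, *Tnfrsf18*, *Tnfrsf25*, *Tnfrsf26*, *Cd27* and *Fas*, matched by symbol among the 24369 genes of the series. All 10 passed the filter on low counts, as did 14143 genes in all. Naive CD4 T cells from the spleens of WT C57BL/6 mice were activated with anti-CD3, anti-CD28 and human IL-2, transduced after 2 days, and restimulated with anti-CD3 on day 5, and the GFP+ cells were then sorted for RNA-seq. The 2 EV RV libraries came from cells with an MSCV vector that carries GFP alone, and the 2 Tox RV libraries from cells with the same vector carrying Tox and GFP, so the culture and the sort were the same in both groups. Each group represents 2 mice. The study asked which genes ectopic Tox changes outside a polarized Th lineage, and the comparison of Tox RV with EV RV puts that question to these receptors.

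TNF receptor superfamily proteins are cell surface receptors with cysteine-rich repeats outside the cell, and most bind trimeric ligands of the TNF superfamily. TNFR1, Fas and DR3 carry a death domain and can lead to caspase activation, while TNFR2, CD27, OX40, CD30, 4-1BB and GITR bind TRAF adaptors and feed the NF-κB pathways. In CD4 T cells CD27 is found on naive cells, while OX40, CD30 and 4-1BB appear after T cell receptor stimulation and act as costimulatory receptors. GITR is present on regulatory T cells and is increased on activated T cells.

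Of the members, 6 of 10 lie on chromosome 4 of the mm10 build (GRCm38, GENCODE annotation). *Tnfrsf1b* (145213463 to 145246870, minus strand) and *Tnfrsf8* (145267137 to 145315164, minus strand) are 20.3 kb apart. *Tnfrsf4* (156013843 to 156016612, plus strand) and *Tnfrsf18* (156026164 to 156028895, plus strand) are 9.6 kb apart. *Tnfrsf9* (150914562 to 150946102, plus strand) and *Tnfrsf25* (152115934 to 152120119, plus strand) lie between these pairs. *Cd27* (125232622 to 125237010, minus strand) and *Tnfrsf1a* (125349362 to 125362484, plus strand) are 112.4 kb apart on chromosome 6. *Tnfrsf26* is on chromosome 7 (143607659 to 143628722, minus strand) and *Fas* on chromosome 19 (34290666 to 34327772, plus strand). All are protein coding. Exons of *Tnfrsf18* and *Tnfrsf26* overlap antisense genes (*Gm16008* and *E230032D23Rik*), so reads there could not be told apart unless strand was used, which is not stated. An exon of *Cd27* also overlaps *Mir8113*.

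Promoter sequence is shown because several of the receptors are known as genes that T cell activation induces, and NF-κB and AP-1 are factors that T cell receptor stimulation activates. The 250 bases before each RefSeq start site (GRCm38.p6) were available for 9 of the 10 members, in 11 windows. The letters GGGNNNNNCC of a κB site were searched on both strands, and so were the letters TGANTCA of an AP-1 site. A κB match was present in 8 of 11 windows, against 45.8% of 32851 windows of all genes, and an AP-1 match in 3 of 11 windows, against 6.75% of them. Counted by gene, a κB match was present in 7 of 9 and an AP-1 match in 3 of 9. The windows of *Tnfrsf4*, *Tnfrsf18* and the first start site of *Tnfrsf9* held neither. *Fas*, *Tnfrsf8* and the second start site of *Tnfrsf9* held both. Their sequences are given 5′ to 3′ on the gene's strand, with the matching letters of both motifs in capitals. The *Fas* window is chr19:34290409-34290658 and the *Tnfrsf8* window chr4:145315165-145315414. The *Tnfrsf9* window overlaps an annotated exon, so only 20 bases at each match are shown, chr4:150927951-150927970 for κB and chr4:150927979-150927998 for AP-1.
Fas: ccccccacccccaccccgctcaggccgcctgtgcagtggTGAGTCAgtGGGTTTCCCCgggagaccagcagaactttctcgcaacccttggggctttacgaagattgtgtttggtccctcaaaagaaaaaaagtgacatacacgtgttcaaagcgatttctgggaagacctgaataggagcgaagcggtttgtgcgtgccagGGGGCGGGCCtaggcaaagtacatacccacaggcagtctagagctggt
Tnfrsf8: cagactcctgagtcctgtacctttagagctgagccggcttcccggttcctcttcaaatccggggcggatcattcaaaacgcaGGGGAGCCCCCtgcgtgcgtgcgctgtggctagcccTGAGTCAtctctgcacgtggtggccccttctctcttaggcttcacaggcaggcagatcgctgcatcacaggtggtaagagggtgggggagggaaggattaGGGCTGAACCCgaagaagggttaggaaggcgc
Tnfrsf9 κB: cagctGGGGATTTCCCagga
Tnfrsf9 AP-1: tcagtTGAGTCAcaggtcct
The AP-1 match was TGAGTCA in each of the 3. The κB capitals of *Tnfrsf8* and *Tnfrsf9* hold overlapping matches of both strands. A match of letters does not show that a factor binds there, and the part of these matches in the RNA levels was not tested.

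The libraries held 46989997 to 74548723 expected counts, the number of fragments per gene that RSEM estimates. EV RV replicate 1 stood apart from the others, at -53.8 on the first principal component (58.0% of the variance) against 5.70 to 25.8, and 24.7% of its counts were 45S pre-ribosomal RNA, against 7.14% to 11.97% in the others. *Tox* stood at 11.7 and 5.73 counts per 1000000 (CPM, TMM-scaled) with the empty vector and at 121 and 99.9 with the Tox vector, so each library matched its label. The 6 CD4 T cell markers summed to 1325 to 1752 CPM in every library. Of these, *Cd3e* stood at 219 CPM in EV RV replicate 1 and 71.6 to 91.2 CPM in the others. *Cd5* stood at 204 CPM there and 97.9 to 142 CPM in the others. In EV RV replicate 1, *Cd3d*, *Cd3g*, *Cd4* and *Cd2* lay within the range of the other libraries. *Cd8a* and *Cd8b1* summed to 3.88 to 4.77 CPM, the 4 B cell markers to 1.16 to 1.62 CPM with *Ms4a1* at 0 in all libraries, and the 7 myeloid markers to 0.985 to 1.61 CPM. The 4 NK cell markers summed to 52.0 and 12.6 CPM with the empty vector and 28.1 and 7.04 CPM with Tox, with *Ncr1* at 0 in all libraries. In sorted bulk RNA of this kind, fewer cells that express a gene and less RNA per cell cannot be told apart.

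*Tnfrsf9*, which encodes 4-1BB, had the highest mean level of the members over all 4 libraries when levels were compared per transcript length. Its TPM, transcripts per 1000000 transcripts in the deposited files, was 631 and 682 with the empty vector and 948 and 810 with Tox, with replicate 1 named first here and for every gene that follows. *Tnfrsf18* (GITR) was at 634, 786, 480 and 546 TPM in the same order, so it was above *Tnfrsf9* in both EV RV libraries and below it in both Tox RV libraries, and the ranges of these genes overlapped. *Tnfrsf4* (OX40) followed at 252 to 467 TPM, with no overlap with *Tnfrsf18* above it or *Cd27* below it. *Cd27* was at 46.7 to 121 TPM. The other 6 overlapped their neighbours in the order *Fas* (48.6 to 62.8 TPM), *Tnfrsf1b* (26.1 to 54.8), *Tnfrsf8* (16.8 to 51.5), *Tnfrsf26* (16.6 to 40.0), *Tnfrsf25* (9.66 to 20.8) and *Tnfrsf1a* (7.62 to 16.7). By mean TPM *Tnfrsf9* lay above 98.9%, *Tnfrsf18* above 98.8% and *Tnfrsf4* above 97.9% of the genes tested, while *Tnfrsf1a* lay above 52.9%. *Tnfrsf9*, *Tnfrsf18* and *Tnfrsf4* were thus the 3 members with the highest RNA levels in these restimulated cells, in both groups.

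**Figure D1:**
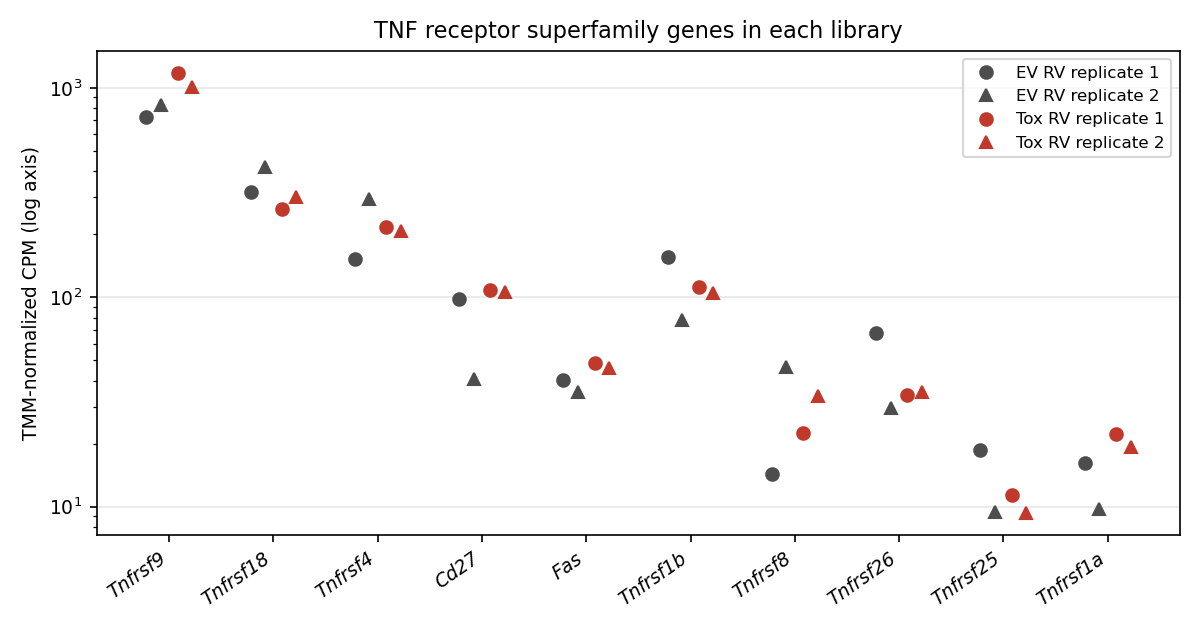
TMM-normalized CPM (log axis) of the 10 TNF receptor superfamily genes in the 4 libraries, ordered by mean TPM, with EV RV in grey and Tox RV in red (circles replicate 1, triangles replicate 2). Both Tox RV points lie above both EV RV points for *Tnfrsf9*, *Cd27*, *Fas* and *Tnfrsf1a* and below them for *Tnfrsf18*, and the EV RV points lie wide apart for *Tnfrsf8*, *Cd27* and *Tnfrsf26*.

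Between the groups, levels were compared as TMM-scaled CPM by the quasi-likelihood test of edgeR, with p-values adjusted over 14143 genes by Benjamini-Hochberg. There, 0 of the 10 members passed an adjusted p-value of 0.05, and so did 0% of all genes tested. The smallest adjusted p-value among the members was 0.897. *Tox* itself, higher by 3.68 on the log2 scale (standard error 0.38), did not pass in this fit either, with an adjusted p-value of 0.490 in edgeR against 3.79e-24 in DESeq2. At an unadjusted p-value below 0.05 there was 1 member, *Tnfrsf9*, against 3.62% of all genes. DESeq2, the tool named in the study's methods, called 0 members at an adjusted p-value below 0.05, against 0.121% of the genes it tested. At an unadjusted p-value below 0.05 it gave 2 members, *Tnfrsf1a* and *Tnfrsf9*, against 3.21% of genes. The median log2 fold change was -0.09 over the members and 0.0036 over all genes tested, with 4 members above 0 and 6 below. The Tox RV libraries were both higher than either control in 4 members, against 18.6% of all genes, and both lower in 1 member, against 17.4%.

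Among the death domain receptors, *Tnfrsf1a* encodes TNFR1, the receptor through which TNF can start either NF-κB signalling or cell death. It stood at 16.2 and 9.77 CPM with the empty vector and 22.1 and 19.3 CPM with Tox. Neither control reached the level of a Tox RV library. *Tnfrsf1a* had a log2 fold change of 0.67, the highest of the members (standard error 0.28, 95% interval -0.02 to 1.37, adjusted p = 0.897 in edgeR). It was 1.08 without EV RV replicate 1 and 0.36 without EV RV replicate 2.

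*Fas*, the receptor of Fas ligand, was among the steadiest members. It stood at 40.2 and 35.3 CPM with the empty vector and 48.3 and 46.0 CPM with Tox. The groups did not overlap, and Tox RV was the higher one. Its log2 difference was 0.32 (standard error 0.17, 95% interval -0.10 to 0.74, adjusted p = 0.897 in edgeR), and 0.23 to 0.41 with each library left out.

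*Tnfrsf25* encodes DR3, the receptor of TL1A. It stood at 18.6 and 9.46 CPM with the empty vector and 11.4 and 9.37 CPM with Tox. EV RV replicate 1 was high and the other libraries were close together. For *Tnfrsf25* the log2 fold change was -0.43 (standard error 0.35, 95% interval -1.29 to 0.43, adjusted p = 0.897 in edgeR). It turned to 0.13 without EV RV replicate 1.

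Among the receptors that bind TRAF adaptors, *Tnfrsf9* had the narrowest error relative to its difference. 4-1BB is a costimulatory receptor that stimulated T cells induce. *Tnfrsf9* stood at 726 and 824 CPM with the empty vector and 1181 and 1010 CPM with Tox, from 30637 to 74682 counts. Both Tox RV libraries were the high ones, and the controls lay closer together than in any other member. Tox RV exceeded EV RV by a log2 fold change of 0.50 (standard error 0.17, 95% interval 0.07 to 0.93, adjusted p = 0.897 in edgeR), a 1.41-fold difference. It ranked 279 by unadjusted p-value among the 14143 genes, and the log2 fold change was 0.38 to 0.61 with each library left out.

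*Tnfrsf18* was the member in which both Tox RV libraries were lower. It stood at 318 and 419 CPM with the empty vector and 263 and 300.0 CPM with Tox. The groups did not overlap, but Tox RV replicate 2 and EV RV replicate 1 were near each other. On the log2 scale the difference of *Tnfrsf18* was -0.39 (standard error 0.20, 95% interval -0.89 to 0.11, adjusted p = 0.897 in edgeR). It was -0.17 without EV RV replicate 2 and -0.58 without EV RV replicate 1.

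*Tnfrsf4*, the neighbour of *Tnfrsf18*, stood at 152 and 296 CPM with the empty vector and 216 and 208 CPM with Tox. The controls lay on either side of both Tox RV libraries, nearly 2-fold apart. OX40 RNA differed by -0.08 on the log2 scale (standard error 0.32, 95% interval -0.87 to 0.72, adjusted p = 0.971 in edgeR). It was -0.49 without EV RV replicate 1 and 0.49 without EV RV replicate 2, so a single control library set its direction.

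*Tnfrsf8* encodes CD30, a receptor of activated lymphocytes. It stood at 14.3 and 46.2 CPM with the empty vector and 22.5 and 33.8 CPM with Tox, again with Tox RV between the controls. Its log2 fold change was -0.11, with the widest error of the members (standard error 0.54, 95% interval -1.44 to 1.22, adjusted p = 0.974 in edgeR). It was -0.72 with EV RV replicate 1 left out and 0.98 with EV RV replicate 2 left out. The data therefore leave both a more than 2-fold increase and a more than 2-fold decrease of *Tnfrsf8* within the interval.

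*Tnfrsf1b* encodes TNFR2, the TNF receptor without a death domain that is prominent on activated and regulatory T cells. It stood at 156 and 78.2 CPM with the empty vector and 112 and 105 CPM with Tox. Here too the Tox RV libraries lay between the controls. Its log2 difference came to -0.11 (standard error 0.33, 95% interval -0.93 to 0.71, adjusted p = 0.952 in edgeR), 0.47 without EV RV replicate 1 and -0.52 without EV RV replicate 2.

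*Cd27*, the gene of a costimulatory receptor that naive T cells already carry, stood at 98.3 and 40.7 CPM with the empty vector and 108 and 106 CPM with Tox. EV RV replicate 2 was low and the other libraries had similar levels. The difference in *Cd27* was 0.62 on the log2 scale (standard error 0.40, 95% interval -0.37 to 1.62, adjusted p = 0.897 in edgeR). It was 1.39 without EV RV replicate 1 and 0.13 without EV RV replicate 2, so the size of the difference in *Cd27* rested on 1 control library.

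*Tnfrsf26* is a mouse relative of the decoy TRAIL receptor genes *Tnfrsf22* and *Tnfrsf23*. It stood at 67.7 and 29.5 CPM with the empty vector and 34.0 and 35.4 CPM with Tox. The Tox RV libraries were close to each other, between the controls, and EV RV replicate 1 was the high one. For *Tnfrsf26* the log2 difference was -0.49 (standard error 0.38, 95% interval -1.44 to 0.46, adjusted p = 0.897 in edgeR). With EV RV replicate 2 left out it was -0.96, with an adjusted p-value of 0.0354 in edgeR, a fit in which the lone EV RV library is assumed to vary like the Tox RV libraries and in which 600 of 14408 genes passed. With EV RV replicate 1 left out it was 0.22. *Tnfrsf22* and *Tnfrsf23*, added after their values were seen, were lowly expressed, and EV RV replicate 1 was again the highest library, at 5.88 CPM against 2.39 to 3.01 for *Tnfrsf22* and 8.96 CPM against 2.88 to 5.12 for *Tnfrsf23*. Their log2 fold changes were -0.71 (standard error 0.39) and -0.52 (standard error 0.57), with adjusted p-values of 0.897 and 0.902 in edgeR.

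**Figure D2:**
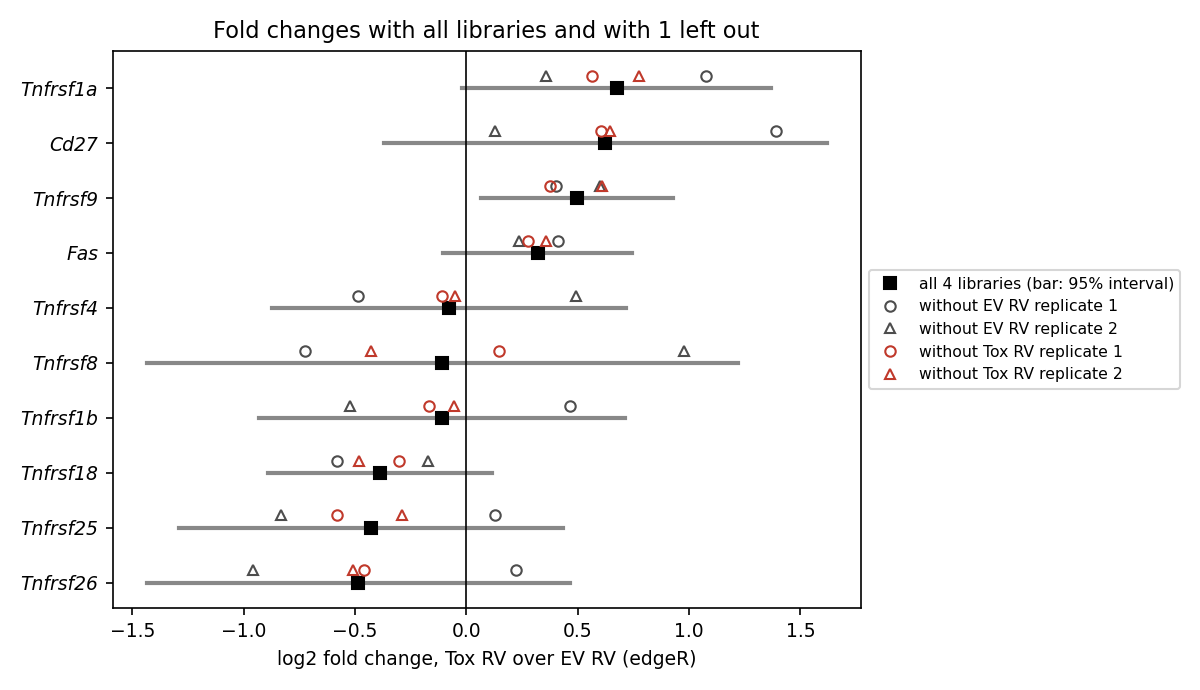
Log2 fold change of Tox RV over EV RV for the 10 genes, with black squares and 95% intervals from all 4 libraries and open symbols from the fits that each left out 1 library. *Tnfrsf9* has the interval that stays above 0 (0.07 to 0.93), and the fits without an EV RV library lie on opposite sides of 0 for *Tnfrsf4*, *Tnfrsf8*, *Tnfrsf1b*, *Tnfrsf25* and *Tnfrsf26*.

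The spread of the members was mainly a spread between the control libraries. The median absolute log2 difference between replicates was 0.97 in EV RV and 0.15 in Tox RV over the 10 members, beside 0.38 and 0.17 over all genes tested. The difference was larger in EV RV in 9 of 10 members and in 72.4% of all genes. *Tnfrsf9* was the exception, at -0.18 in EV RV and 0.23 in Tox RV. *Tnfrsf8*, *Cd27* and *Tnfrsf26*, 3 of 10 members, differed more than 2-fold between the EV RV replicates, as did 11.2% of all genes. In *Tnfrsf1b*, *Tnfrsf4*, *Tnfrsf8* and *Tnfrsf26*, 4 of 10 members, both Tox RV libraries lay between the EV RV libraries, an arrangement found in 25.1% of all genes.

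The members divided by which EV RV library was the high one. *Cd27* (log2 difference of replicate 1 over replicate 2 of 1.27), *Tnfrsf26* (1.19), *Tnfrsf1b* (1.00), *Tnfrsf25* (0.97) and *Tnfrsf1a* (0.73) were higher in EV RV replicate 1. *Tnfrsf8* (-1.69), *Tnfrsf4* (-0.96) and *Tnfrsf18* (-0.40) were higher in EV RV replicate 2. *Fas* (0.19) and *Tnfrsf9* (-0.18) differed least. The share of 45S pre-ribosomal RNA was 24.7% in EV RV replicate 1 and 11.97% in EV RV replicate 2, and the NK cell markers summed to 52.0 and 12.6 CPM in these libraries. The part of either in the division was not tested.

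**Figure D3:**
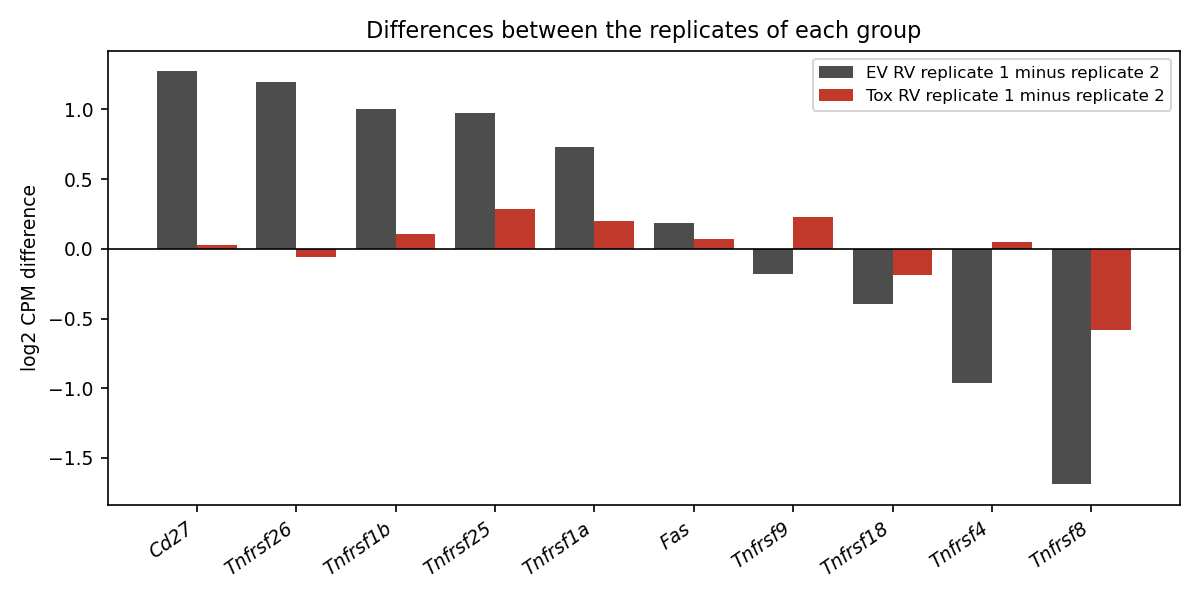
Log2 CPM difference between replicate 1 and replicate 2 for each gene, in EV RV (grey bars) and Tox RV (red bars). The EV RV bars run from 1.27 for *Cd27* to -1.69 for *Tnfrsf8*, while the Tox RV bars stay between 0.28 and -0.58.

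Of the 9 genes for ligands of these receptors, 8 were tested and 0 passed an adjusted p-value of 0.05 in edgeR (1 at an unadjusted p-value below 0.05, *Lta*) or in DESeq2 (1, also *Lta*). Of all genes, 0% passed the adjusted and 3.62% the unadjusted threshold in edgeR, and 0.121% and 3.21% in DESeq2. *Lta*, which encodes lymphotoxin alpha, a ligand of TNFR1 and TNFR2, stood at 50.2 and 50.8 CPM with the empty vector and 101 and 71.5 CPM with Tox. The controls were nearly equal, and both Tox RV libraries were higher. On the log2 scale *Lta* differed by 0.77 (standard error 0.22, 95% interval 0.24 to 1.31, adjusted p = 0.897 in edgeR, adjusted p = 0.571 in DESeq2), and 0.50 to 1.01 with each library left out. *Tnf*, the other ligand of these receptors, stood at 86.3 and 77.7 CPM with the empty vector and 111 and 75.5 CPM with Tox. Its groups overlapped, at a log2 difference of 0.18 with a standard error of 0.23.

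*Fasl*, the gene of Fas ligand, stood at 72.0 and 82.0 CPM with the empty vector and 68.1 and 45.4 CPM with Tox. Here Tox RV was the lower group without overlap, the opposite arrangement to *Fas*. Its log2 fold change was -0.44 (standard error 0.24, 95% interval -1.03 to 0.15, adjusted p = 0.897 in edgeR), -0.17 without Tox RV replicate 2 and -0.77 without Tox RV replicate 1. *Tnfsf9*, the ligand gene of 4-1BB, was low, at 4.53 and 2.06 CPM with the empty vector and 5.28 and 4.57 CPM with Tox. Tox RV was higher without overlap, as for *Tnfrsf9*, by 0.59 on the log2 scale (standard error 0.41, 95% interval -0.42 to 1.61). The size of this difference rested on the controls, since it was 0.13 without EV RV replicate 2 and 1.25 without EV RV replicate 1. Of the 8 ligand genes tested, both Tox RV libraries were higher than either control in 2, against 18.6% of all genes. They were both lower in 1, against 17.4%.

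*Tnfsf8* (CD30 ligand) had the highest mean TPM of the ligand genes, at 96.2 to 164 TPM, and stood at 204 and 158 CPM with the empty vector and 169 and 130.0 CPM with Tox, a log2 fold change of -0.28 (standard error 0.22). *Tnfsf4* (OX40 ligand) stood at 79.5 and 56.6 CPM with the empty vector and 59.2 and 48.0 CPM with Tox, a log2 fold change of -0.34 (standard error 0.23). The groups overlapped in both. *Cd70*, the CD27 ligand gene, was at 0.81 to 3.66 TPM and *Tnfsf15*, the TL1A gene, at 0.10 to 0.27 TPM. Their log2 fold changes were -0.30 (95% interval -2.16 to 1.57) and 0.55 (95% interval -0.89 to 1.98), with groups that overlapped. *Tnfsf18*, the GITR ligand gene, had 2 counts in EV RV replicate 2 and 0 in the other libraries, so a difference was not detectable at this depth. The ligand genes of GITR, DR3 and CD27 thus had little RNA in cells with 480 to 786 TPM of *Tnfrsf18*.

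**Figure D4:**
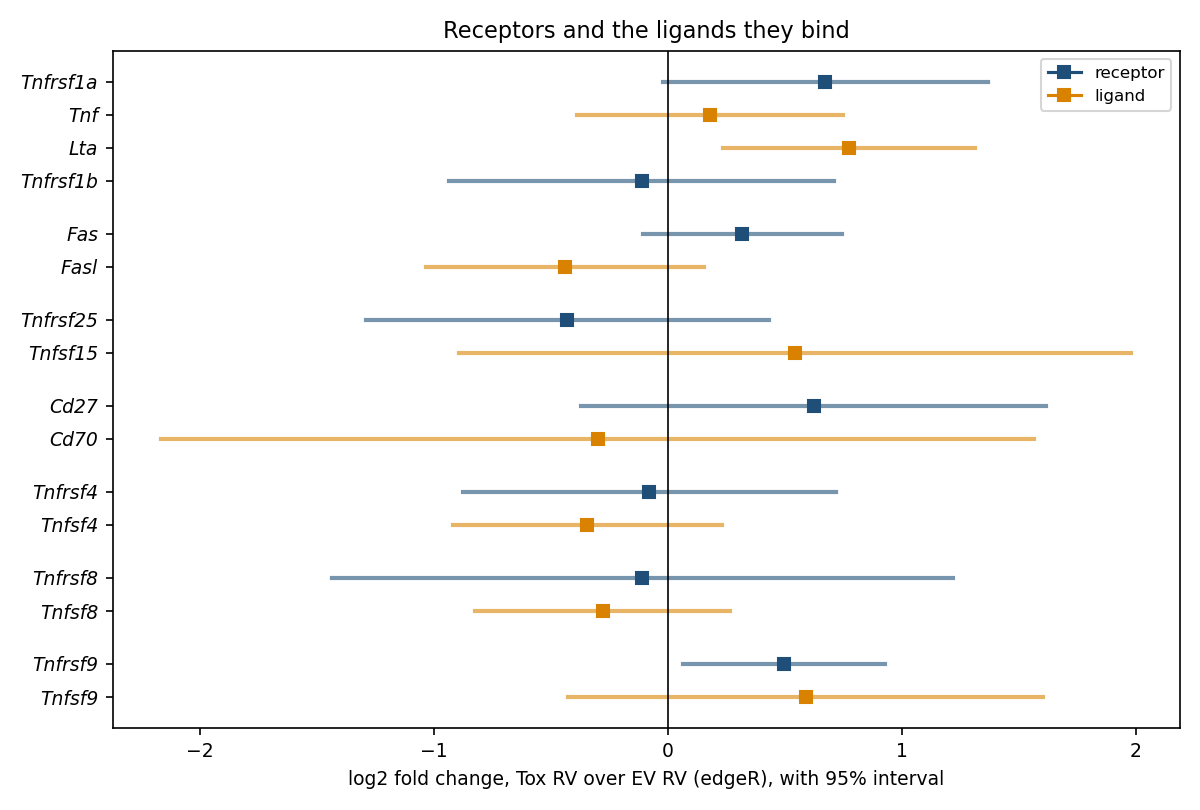
Log2 fold change of Tox RV over EV RV with 95% intervals for 8 receptor genes (blue) and the tested genes of their ligands (orange), grouped by binding partner, with *Tnf* and *Lta* shared by *Tnfrsf1a* and *Tnfrsf1b*. *Lta* and *Tnfrsf9* have intervals above 0, and *Fas* (0.32) and *Fasl* (-0.44) have opposite signs with intervals that include 0.

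Downstream of the receptors, 14 signalling genes were tested. These were the TRAF adaptors *Traf1*, *Traf2*, *Traf3*, *Traf5* and *Traf6*, the ubiquitin ligases *Birc2* and *Birc3*, the death domain adaptors and kinase *Tradd*, *Fadd* and *Ripk1*, *Casp8* and its inhibitor *Cflar*, the NF-κB inhibitor *Tnfaip3*, and *Map3k14*, the kinase of the noncanonical NF-κB pathway. In edgeR 0 of 14 passed an adjusted p-value of 0.05 and 0 an unadjusted p-value of 0.05, and DESeq2 gave 0 at either. The shares of all genes were 0% and 3.62% in edgeR, and 0.121% and 3.21% in DESeq2. The log2 fold changes of the 14 ran from -0.37 for *Birc3* (standard error 0.16) to 0.46 for *Traf5* (standard error 0.26). Of them 7 were above 0 and 7 below, with a median of -0.02. At these ends of the range, chosen after their values were seen, *Birc3* stood at 113 and 105 CPM with the empty vector and 85.9 and 83.5 CPM with Tox, without overlap. *Traf5*, an adaptor of OX40 and CD27, stood at 8.72 and 6.23 CPM with the empty vector and 11.5 and 8.98 CPM with Tox, also without overlap. Their 95% intervals were -0.76 to 0.03 and -0.19 to 1.11. Over the 14 genes, both Tox RV libraries were higher than either control in 3, against 18.6% of all genes, and lower in 2, against 17.4%.

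Of 18 further superfamily genes, 14 were tested, with 0 called by edgeR or DESeq2, against 0% and 0.121% of all genes. Of the 14, 4 had log2 fold changes above 0 and 10 below, with a median of -0.24. Both Tox RV libraries were higher than either control in 2 of the 14, against 18.6% of all genes, and lower in 3, against 17.4%. In edgeR 1 of the 14 had an unadjusted p-value below 0.05, against 3.62% of all genes. This was *Tnfrsf21*, which encodes the death domain receptor DR6. It stood at 3.91 and 5.71 CPM with the empty vector and 9.58 and 7.21 CPM with Tox. Tox RV was higher without overlap, by 0.80 on the log2 scale (standard error 0.29, 95% interval 0.08 to 1.52, adjusted p = 0.897 in edgeR). *Tnfrsf11b*, the gene of the secreted decoy osteoprotegerin, differed by -2.49 on the log2 scale (standard error 1.14), from 10 and 53 counts with the empty vector and 10 and 0 counts with Tox. Its high library was EV RV replicate 2 alone. DESeq2 gave 2 of the 14 genes at an unadjusted p-value below 0.05, *Tnfrsf21* and *Tnfrsf11b*, against 3.21% of genes. *Tnfrsf17*, *Tnfrsf19*, *Ngfr* and *Edar* had at most 13 counts in any library.

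Because several members are induced by T cell receptor stimulation, 11 genes that respond to restimulation were set beside them. In edgeR 0 passed an adjusted p-value of 0.05 and 2 an unadjusted p-value of 0.05, and DESeq2 called 0, with 3 at an unadjusted p-value below 0.05. Over all genes tested, these shares were 0% and 3.62% in edgeR, and 0.121% and 3.21% in DESeq2. The 2 in edgeR, named after their values were seen, were *Nr4a2*, at 14.0 and 13.1 CPM with the empty vector and 23.1 and 18.9 CPM with Tox (log2 fold change 0.64, standard error 0.19), and *Myc*, at 226 and 166 CPM with the empty vector and 147 and 117 CPM with Tox (log2 fold change -0.57, standard error 0.23). Of the 11 genes, 5 were above 0 and 6 below, with a median log2 fold change of -0.11. Their summed level was 2444 and 2866 CPM with the empty vector and 2372 and 2109 CPM with Tox, and *Il2ra* and *Irf4* made up most of it in every library. The part of restimulation strength in the levels of *Tnfrsf9* or *Tnfrsf18* was not tested.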

How the data were processed

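RNA-seq of sorted GFP+ CD4 T cells (2 EV RV and 2 Tox RV libraries, grouped by their titles) was used as deposited. The authors checked reads with fastqc, aligned them to mm10 transcripts with bowtie and quantified genes with RSEM. The expected counts deposited by the authors are RSEM estimates, not normalized, and the deposited TPM are RSEM's, per 1000000 transcripts. FPKM and a table of the whole series were not used. Expected counts were rounded, filtered with filterByExpr (minimum count 10), TMM-scaled and tested in edgeR 4.0.16 (R 4.3.3) by glmQLFit and glmQLFTest with group as the term. Standard errors came from the fold change and F statistic, and 95% intervals used 5.77 degrees of freedom. DESeq2 1.42.0 and limma 3.58.1 were alternatives. Fits were tested on simulated counts, in which no library was made to stand apart as EV RV replicate 1 did. That test therefore does not show what the fits can detect in these libraries. With 2 libraries against 2, an exact permutation test cannot go below p = 0.333, so none was used. The members and gene lists were chosen with earlier results of these data known. Named genes were the members, their ligands, and signalling or further superfamily genes with an unadjusted p-value below 0.05 or a log2 fold change of at least 1 in size. Others were given by counts and range, except *Birc3*, *Traf5*, *Nr4a2*, *Myc*, *Tnfrsf22* and *Tnfrsf23*, which were chosen after their values were seen. Member transcripts were matched to other genes by blastn, keeping the best match of 100 bases or more by aligned length times identity. *Tnfrsf26* matched *Dcaf8* at 82.8% identity over 151 bases, and *Tnfrsf9* matched *4933402N03Rik* at 78.8% over 118 bases. The other members had no such match.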

Additional observations from a re-analysis of the deposited data

How the results depend on the processing

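The number of members past an adjusted p-value of 0.05 was 0 under DESeq2, median-of-ratios scaling, no filter on low counts, the replicate block, and limma on log2(TPM + 1) and log2(TPM + 0.1). With each library left out it was 0 to 1, the 1 being *Tnfrsf26* without EV RV replicate 2. Ligand and signalling genes gave 0 in all of these. Over all genes, DESeq2 and the fit without a filter each called 22. The main edgeR fit, median-of-ratios scaling and both limma fits called 0 of all genes, and so not *Tox*. A count of 0 there could not set the members apart from other genes. The median log2 fold change of the members ranged from -0.10 to 0.31, so its sign was not settled. It was -0.09 in the main fit and 0.05 with the replicate block. It was also above 0 without EV RV replicate 1 (0.31), EV RV replicate 2 (0.18) or Tox RV replicate 1 (0.02). This range was narrower than 0.46, the within-group standard deviation of the members' median log2 CPM. Over 27 named genes and 10 alternatives, 255 of 270 log2 fold changes kept their direction. All alternatives drew on the same 4 libraries. For any named gene whose groups did not overlap, leaving out a library could not change the sign, so part of this count was fixed in advance. In the fits that left out a library, the range was -0.52 to 0.47 for *Tnfrsf1b*, -0.49 to 0.49 for *Tnfrsf4*, -0.72 to 0.98 for *Tnfrsf8*, -0.83 to 0.13 for *Tnfrsf25*, -0.96 to 0.22 for *Tnfrsf26*, -0.12 to 0.44 for *Tnf*, -0.17 to 1.00 for *Tnfsf15*, -1.46 to 0.63 for *Cd70* and -1.12 to 0.51 for *Tnfrsf23*. With the replicate block *Tnfrsf4* was at 0.0015 and *Tnfrsf8* at 0.0916, and with limma *Tnfrsf8* was at 0.0105 and 0.0167 for the larger and smaller pseudocount. The cause of these reversals was not tested. *Tnfrsf1a*, *Tnfrsf9*, *Cd27*, *Fas* and *Tnfrsf18* kept their sign, which leaving out a library could not change because their groups did not overlap. The replicate block raised the calls over all genes from 0 to 16, with 0 members among them. The replicate numbers are not known to mark a mouse, and the differences between replicates 1 and 2 correlated across genes at r = 0.302 between the groups. Depth limited *Tnfsf18*, *Tnfsf15* and *Cd70*.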
